A study of Mus musculus with 6 samples.

Results

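The deposited liver RNA-seq table of aged mice holds 205 genes, and 10 of them encode proteins known from mucus-covered epithelia: the mucins Muc3 and Muc4, the secreted proteins Tff2, Spink4, Reg1, Dmbt1 and Olfm4, the dual oxidase Duox2 with its maturation factor Duoxa2, and Fam83e. The 10 genes were taken by name, from earlier results in these same 6 livers, as epithelial genes that were near 0 in the LoxP livers, so their FPKM values are given here as a description and without a test. The samples were 3 LoxP and 3 SIRT2-KOhep livers, with 1 library for each mouse. The mice were on a C57BL/6 background and 18 months old. SIRT2-KOhep mice carried floxed SIRT2 alleles (SIRT2 flox/flox) and Alb-Cre, in which the albumin promoter drives Cre recombinase in hepatocytes. Whether bile duct, endothelial and immune cells of the same liver kept the gene is not shown by these data. LoxP mice carried the floxed alleles without Alb-Cre, as the paper defines this control, and have the genotype WT in the labels.

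Mucosal surfaces of the stomach, intestine and large bile ducts are protected by layers of defence. Membrane mucins form a glycoprotein coat on the cell, trefoil peptides and lectin-like proteins are secreted into mucus, and dual oxidases release hydrogen peroxide at the apical surface. Hepatocytes are not known for these genes, whereas the epithelium of injured or inflamed bile ducts, stomach, intestine and pancreas is. In bulk liver RNA, more cells of a type and more RNA per cell cannot be told apart.

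The FPKM unit counts fragments mapped to a gene, scaled by transcript length and by the mapped fragments of the library. Values were deposited with 2 decimals, so a gene listed at 0 had a value that rounds to 0. Sequencing depth could not be recovered from the table. The deleted gene followed the labels, with Sirt2 levels of 26.54, 28.57 and 25.78 FPKM for LoxP mice 1, 2 and 3 against 7.21, 8.45 and 8.58 FPKM for SIRT2-KOhep mice 1, 2 and 3. SIRT2-KOhep mouse 2 stood apart from the other 5 mice in many genes: of the 154 listed genes with a higher mean in SIRT2-KOhep livers, 108 (70.1%) peaked in that mouse.

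The upstream sequences of the dual oxidase pair are shown first because both genes are transcribed away from a shared interval, and those of Reg1 and Olfm4 because they represent a secreted lectin-like protein and a glycoprotein with values in the same liver. RefSeq promoter windows of GRCm38.p6 were found for 7 of the 10 genes. Tff2, Spink4 and Dmbt1 had no entry. Each sequence below is the 250 bases before the annotated start, 5′ to 3′ on the strand of the gene, and capitals mark a TATAAA match in Duoxa2 and Reg1 and an NF-kB match in Olfm4.
Duox2, chr2:122298228-122298477, minus strand: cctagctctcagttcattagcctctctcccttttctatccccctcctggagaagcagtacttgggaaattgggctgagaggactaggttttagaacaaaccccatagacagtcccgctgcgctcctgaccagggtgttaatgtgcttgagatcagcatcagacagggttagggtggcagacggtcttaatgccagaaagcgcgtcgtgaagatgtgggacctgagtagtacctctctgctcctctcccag
Duoxa2, chr2:122298650-122298899, plus strand: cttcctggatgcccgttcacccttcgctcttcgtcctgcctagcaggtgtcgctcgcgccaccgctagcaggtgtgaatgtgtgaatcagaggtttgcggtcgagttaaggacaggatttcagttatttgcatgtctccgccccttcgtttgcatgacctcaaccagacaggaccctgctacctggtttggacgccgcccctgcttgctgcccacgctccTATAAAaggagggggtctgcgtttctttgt
Reg1, chr6:78425733-78425982, plus strand: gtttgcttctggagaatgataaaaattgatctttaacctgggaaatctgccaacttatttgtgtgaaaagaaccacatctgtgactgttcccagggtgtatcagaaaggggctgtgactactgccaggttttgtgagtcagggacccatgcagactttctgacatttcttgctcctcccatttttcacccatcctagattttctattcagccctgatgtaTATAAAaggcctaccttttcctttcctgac
Olfm4, chr14:80000052-80000301, plus strand: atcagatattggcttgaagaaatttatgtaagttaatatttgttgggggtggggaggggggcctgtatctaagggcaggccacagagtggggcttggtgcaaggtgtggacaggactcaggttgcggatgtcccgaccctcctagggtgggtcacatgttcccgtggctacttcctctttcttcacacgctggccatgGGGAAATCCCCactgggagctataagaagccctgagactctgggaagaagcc

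The 5 motifs searched on both strands of these windows were picked after the values were seen, and the printed windows were chosen partly by their matches. A TATAAA match, the core of the TATA box, lay upstream of Muc4, Reg1 and Duoxa2, which makes 3 of 7 windows against 12.4% of the 32841 mouse promoter windows of the same length. In Reg1 and Duoxa2 it began at position -30, counted with -1 as the base just before the start, and in Muc4 at position -36. The C/EBP motif TTGCNNAA was found in Fam83e alone, at position -65, and in 9.57% of all windows. The NF-kB motif was found in Olfm4 alone, with 2 overlapping matches, and in 3.90% of all windows. Neither the STAT motif TTCNNNGAA (7.02% of all windows) nor the GATA motif AGATAA (9.99%) was present in the 7 windows. No window held matches of 2 different motifs, and a match is a run of letters, not a bound site. The GC content of the 7 windows had a median of 54.0% (from 42.8% in Reg1 to 61.2% in Fam83e), beside a median of 52.4% over all windows. GENCODE M21 places the gene start of Olfm4 and of Reg1 further upstream than RefSeq does, and that of Muc3 further downstream, so these windows hold for the RefSeq starts only. The Duox2 window precedes the RefSeq promoter start at 122298227 but lies inside the RefSeq gene, which reaches 122298740. It also overlaps a GENCODE transcript of Duox2 that starts at 122298449. For those 2 starts it is wholly or partly within the gene.

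All 10 genes peaked in SIRT2-KOhep mouse 2, and their summed level was 33.42 FPKM there. For LoxP mice 1, 2 and 3 the same sum was 0, 0.11 and 0.11 FPKM. It was 0.08 FPKM for SIRT2-KOhep mouse 1 and 0 for SIRT2-KOhep mouse 3. Each of the 10 genes was above 0 in mouse 2, 4 were above 0 in SIRT2-KOhep mouse 1, 2 in each of LoxP mice 2 and 3, and 0 in LoxP mouse 1 and SIRT2-KOhep mouse 3. Thus 42 of the 50 values in the other 5 mice were listed at 0, and the remaining values did not exceed 0.1 FPKM.

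**Figure D1:**
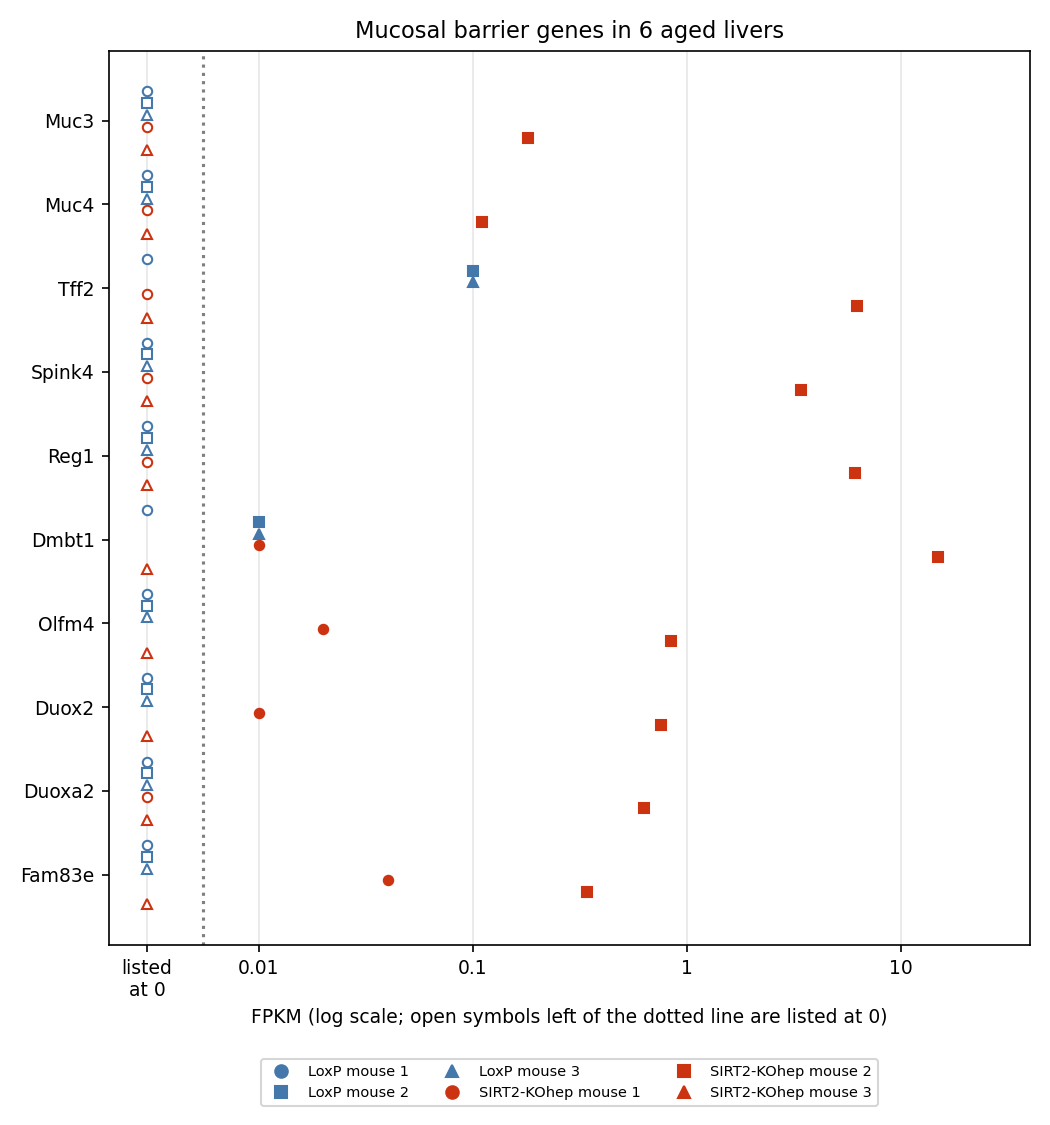
FPKM of each mucosal barrier gene on a log axis, with 1 symbol per mouse (blue, LoxP; red, SIRT2-KOhep; circle, square and triangle for mice 1, 2 and 3) and open symbols at the left for values listed at 0. The red square of mouse 2 is the rightmost symbol for all 10 genes, from 0.11 FPKM for Muc4 to 14.84 FPKM for Dmbt1.

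The secreted proteins carried most of the signal. Dmbt1, a scavenger receptor cysteine-rich protein that binds bacteria in mucus and saliva, had values of 0, 0.01 and 0.01 FPKM across LoxP mice 1 to 3. Across SIRT2-KOhep mice 1 to 3 it had 0.01, 14.84 and 0 FPKM. Its mean was 0.0067 ± 0.0058 FPKM (SD, n = 3) in LoxP livers and 4.95 ± 8.57 FPKM (SD, n = 3) in SIRT2-KOhep livers, an SD larger than the mean. Without mouse 2 the groups overlapped, as SIRT2-KOhep mice 1 and 3 lay within the range of the LoxP mice.

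Tff2, a trefoil peptide of gastric mucous neck cells and of Brunner's glands, was above 0 in 2 LoxP livers, as was Dmbt1. The LoxP mice had 0, 0.1 and 0.1 FPKM, and the SIRT2-KOhep mice 0, 6.21 and 0 FPKM. Hence 2 LoxP livers were above SIRT2-KOhep mice 1 and 3, and only mouse 2 was above the LoxP range. The means were 0.0667 ± 0.0577 FPKM (SD, n = 3) in LoxP and 2.07 ± 3.59 FPKM (SD, n = 3) in SIRT2-KOhep livers.

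Reg1, a lectin-like secreted protein of the exocrine pancreas that is also made by regenerating epithelium, was listed at 0 in 5 mice and at 6.09 FPKM in SIRT2-KOhep mouse 2. Spink4, a Kazal-type peptide of intestinal goblet cells, was likewise listed at 0 in 5 mice and at 3.42 FPKM in mouse 2. Olfm4, a secreted glycoprotein that marks intestinal crypt cells and a subset of neutrophils, had 0 in every LoxP mouse and 0.02, 0.84 and 0 FPKM across the SIRT2-KOhep mice. In these genes mouse 2 was high and the other livers were at or near 0. The SIRT2-KOhep means were 2.03 ± 3.52 FPKM for Reg1, 1.14 ± 1.97 FPKM for Spink4 and 0.287 ± 0.479 FPKM for Olfm4 (SD, n = 3 each).

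Duox2 and Duoxa2 form an enzyme and its partner: the oxidase Duox2 leaves the endoplasmic reticulum for the apical membrane only with the maturation factor Duoxa2. Both transcripts were present in the same liver. The LoxP livers had 0 for both genes. Across SIRT2-KOhep mice 1 to 3, Duox2 had 0.01, 0.76 and 0 FPKM. Duoxa2 had 0, 0.63 and 0 FPKM across the same mice. The ratio of Duox2 to Duoxa2 in mouse 2 was 1.21 per transcript length, that is, in FPKM. The mean of Duox2 was 0.257 ± 0.436 FPKM and that of Duoxa2 0.210 ± 0.364 FPKM in SIRT2-KOhep livers (SD, n = 3 each).

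The genes lie head to head on chromosome 2 of GRCm38, Duox2 on the minus strand from 122279246 to 122298740 and Duoxa2 on the plus strand from 122298900 to 122302885. The distance between their starts depends on the annotated start of Duox2 and was 735 bases for its principal GENCODE transcript, 451 bases for another GENCODE transcript, 673 bases in the RefSeq promoter table and 160 bases for the end of the RefSeq gene. With the starts at 735 and 673 bases, the printed windows of the pair cover facing parts of the same interval. Exons of Duoxa2 overlap those of Duoxa1 on the opposite strand, and the libraries are not stated to keep strand, so reads from the overlapping part cannot be assigned to either gene. The overlap is with another transcript of Duoxa1, since the principal transcripts of Duoxa1 and Duoxa2 share no exon bases. No exon of another gene overlaps Duox2.

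**Figure D2:**
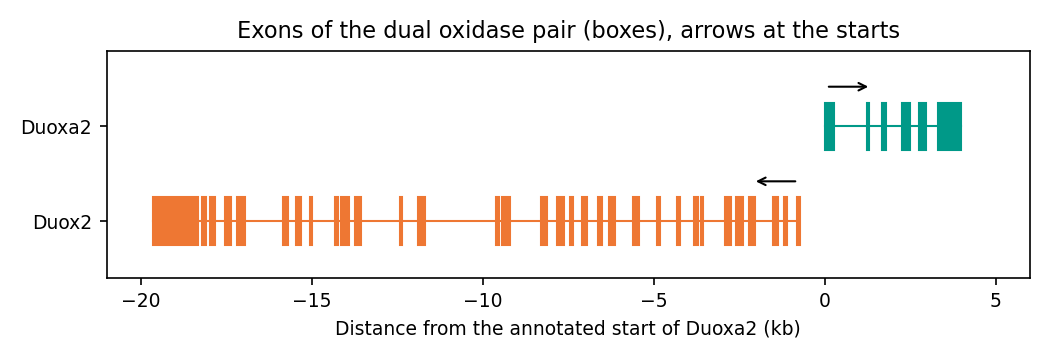
Map of the dual oxidase pair in kb from the annotated start of Duoxa2, with the exons of the principal GENCODE transcripts (32 for Duox2, 6 for Duoxa2) as boxes to scale and arrows for the direction of transcription. The genes point away from each other across a gap of 735 bases between these starts.

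The mucins were near the limit of the table. Muc3, a membrane mucin of the intestinal brush border, was listed at 0 in 5 mice and at 0.18 FPKM in SIRT2-KOhep mouse 2. Muc4, a large membrane mucin of airway, colon and bile duct epithelium, was listed at 0 in 5 mice and at 0.11 FPKM in mouse 2. Muc3 has a close copy, Muc3a, on the same chromosome, and Muc4 exons overlap those of Muc20 on the opposite strand, so the values of both mucins are uncertain. Fam83e, a gene of the FAM83 family of scaffold proteins that bind casein kinase 1, had 0 in every LoxP mouse and 0.04, 0.34 and 0 FPKM across SIRT2-KOhep mice 1 to 3. It had the largest share outside mouse 2, as 10.5% of its summed FPKM was found in mouse 1.

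The share of a gene's summed FPKM that fell in SIRT2-KOhep mouse 2 puts the 10 genes on a common scale. This share ran from 89.5% in Fam83e to 100% in Muc3, Muc4, Spink4, Reg1 and Duoxa2, with a median of 99.9%. Over all 205 listed genes the median share was 32.2%, and over the 144 other genes with a higher mean in SIRT2-KOhep livers it was 40.2%. A share of at least 90% was reached by 15 listed genes, 9 of them mucosal barrier genes. Since the genes were picked on these values, the shares describe how narrow the pattern is and are no test of it.

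**Figure D3:**
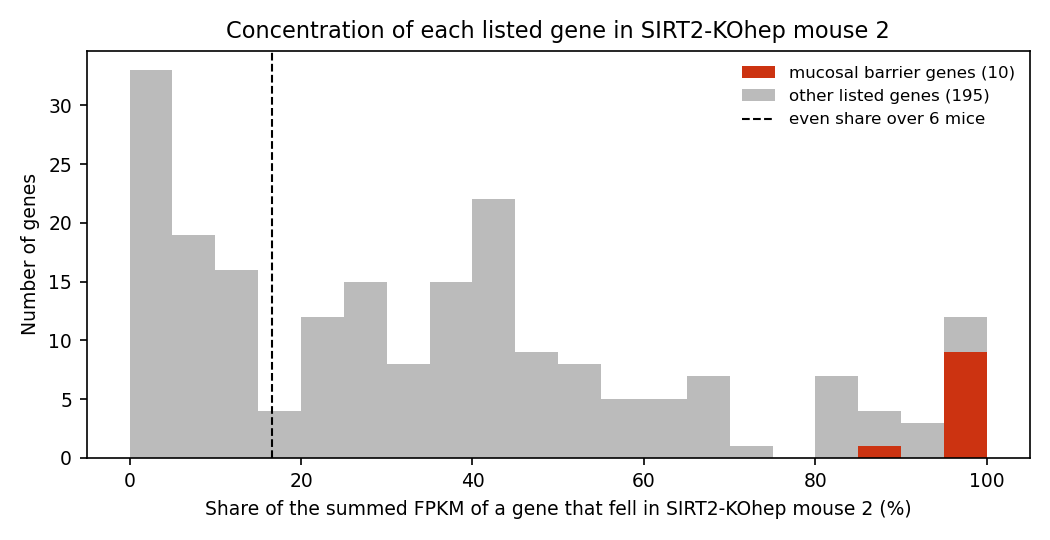
Number of listed genes (vertical axis) by the percent of their summed FPKM found in SIRT2-KOhep mouse 2 (horizontal axis, 5 points per bar), with mucosal barrier genes in red stacked with the other listed genes in grey and the even share over 6 mice as a dashed line. Of the 10 red genes, 9 lie at 95% or above and Fam83e lies at 89.5%.

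Levels per length and fragment support gave different orders. In SIRT2-KOhep mouse 2 Dmbt1 made up 44.4% of the summed FPKM of the 10 genes, and Dmbt1, Tff2, Reg1 and Spink4 together made up 91.4%. The other 6 genes were below 1 FPKM. Multiplying FPKM by the length of the principal GENCODE transcript in kb removes the scaling by length and gives the fragment support of a gene, in FPKM kb. On that scale Dmbt1, with a transcript of 6243 bases, had 92.6 of the 113 FPKM kb of the 10 genes, followed by Reg1 with 5.51, Duox2 with 4.37 and Tff2 with 3.63. Muc4 was lowest in FPKM but, with 11277 bases, had 1.24 FPKM kb, close to the 1.36 of Spink4, whose transcript has 397 bases and whose FPKM was 3.42. Duoxa2 had 1.00, Fam83e 0.989 and Olfm4 2.35 FPKM kb. Muc3 had the weakest support at 0.334 FPKM kb, and its transcript length is uncertain, because the RefSeq gene extends well past the end of the GENCODE model. The GENCODE and RefSeq starts of Reg1 and Olfm4 differ too, and the annotation behind the FPKM values is not given. The support of these genes and its order are thus uncertain.

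**Figure D4:**
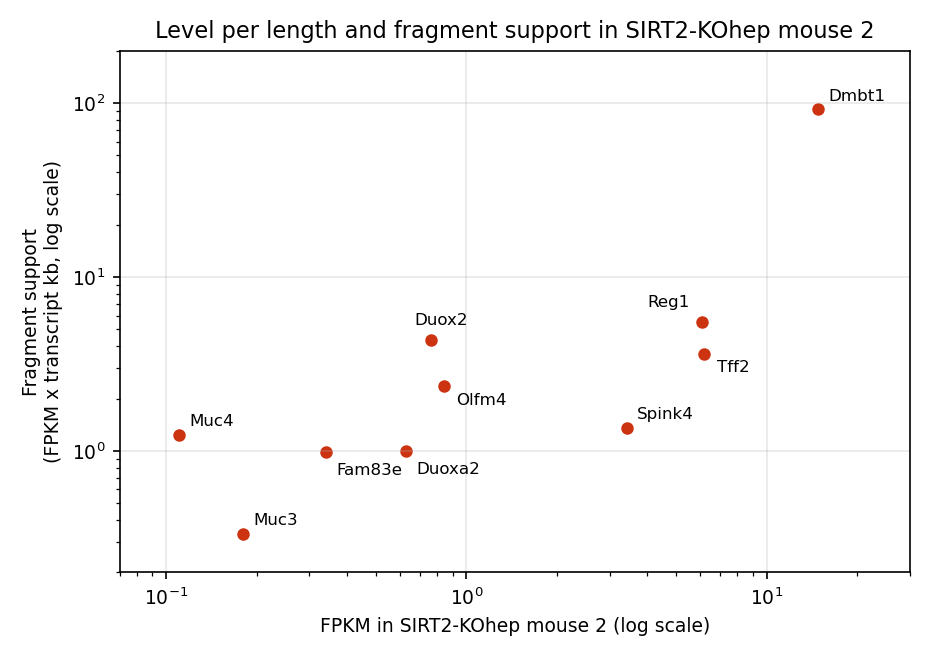
FPKM in SIRT2-KOhep mouse 2 (horizontal log axis) against fragment support, computed as FPKM times transcript length in kb (vertical log axis), with 1 point per gene and no replicate. Dmbt1 lies apart at 92.6 FPKM kb, and the other genes lie between 0.334 (Muc3) and 5.51 (Reg1).

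The smallest steps of the table put a scale on the low values. Among 107 listed genes with a single annotated transcript and values of at least 0.03 FPKM, a minimum set after the values were seen and which partly sets the outcome, the smallest value corresponded to 0.0562 to 0.0627 FPKM kb in each mouse. The Tff2 values of LoxP mice 2 and 3 were 0.0584 FPKM kb, and the Dmbt1 values of LoxP mice 2 and 3 and of SIRT2-KOhep mouse 1 were 0.0624. Olfm4 and Duox2 in SIRT2-KOhep mouse 1 were at 0.0560 and 0.0574 FPKM kb. As listed, these traces were of about the size of the smallest values seen for other genes, and Fam83e in mouse 1, at 0.116, was the only non-zero value outside mouse 2 above them. The Dmbt1 and Duox2 traces are FPKM values of 0.01 and the Olfm4 trace is 0.02, below the minimum set for the other genes. Rounding to 2 decimals can move such values widely, so their order against the smallest step is uncertain. Whether the smallest step is a single fragment was not established, and no counting interval can be given.

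Group differences were set by mouse 2. On the log2(FPKM + 1) scale, which understates changes of genes near 0, the difference of the SIRT2-KOhep from the LoxP mean was 1.32 for Dmbt1, 0.94 for Reg1, 0.86 for Tff2 and 0.71 for Spink4, and between 0.05 (Muc4) and 0.30 (Olfm4) for the other 6. The median over the 10 genes was 0.29, beside 0.34 over all listed genes. By mouse, the median difference from the LoxP mean over the 10 genes was 0, 0.85 and 0 in SIRT2-KOhep mice 1, 2 and 3, beside 0.08, 0.50 and 0.06 over all listed genes. Without mouse 2 the difference was -0.09 for Tff2, -0.0024 for Dmbt1, 0.01 for Olfm4, 0.0072 for Duox2 and 0.03 for Fam83e, and the remaining 5 genes were listed at 0 in all mice that were left.

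None of the 10 genes had all 3 SIRT2-KOhep mice above all 3 LoxP mice, whereas 48 of the 205 listed genes did (23.4%). The choice of genes used this contrast, so nothing is read from that count. In limma with Benjamini-Hochberg adjustment over the 205 genes, 0 genes (0%) passed an adjusted p of 0.05, and 22 genes (10.7%) had an unadjusted p below 0.05. The deleted gene Sirt2, whose groups did not overlap, had an adjusted p of 0.3 in this limma fit. The lack of calls, here and for the gene lists below, therefore does not show that genes were unchanged. The 205 genes are a selection by an unstated rule, and no listed gene had nearly equal means in LoxP and SIRT2-KOhep livers. These p-values, and the shares and medians over listed genes given in this report, are therefore no neutral background. A value of 0 in every LoxP mouse was shared by 8 of the 10 genes and by 20 of all 205 listed genes.

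Genes outside the set with the most similar pattern were ranked by the overlap of share profiles, that is, the sum over the 6 mice of the smaller of a gene's share and the mean share of the 10 genes. Among genes reaching 1 FPKM in some mouse, the closest was Chil4, a chitinase-like lectin of mucosal epithelium, with an overlap of 0.983: it was listed at 0 in 5 mice and at 10.72 FPKM in SIRT2-KOhep mouse 2. It was followed by the mitochondrial creatine kinase Ckmt1 (0.932), the acute phase gene Saa2 (0.924), the calcium-binding S100g (0.918), the chemokine Ccl21a (0.897) and Saa1 (0.863). Saa2 and Saa1 differ from the 10 genes in level, as they were well expressed in LoxP livers too (55.04 to 64.77 FPKM for Saa2), and they are close copies that can share reads. A likeness over 6 mice of which 1 carries nearly all the signal says little beyond that shared liver.

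Related genes were looked up in lists chosen with earlier results of these data known, and a gene absent from the table has an unknown level. Of 13 other mucins only Muc1, a membrane mucin of ducts and glands, was listed, with 0.27, 0.45 and 0.12 FPKM for LoxP mice 1 to 3 and 0.2, 3.01 and 0.37 FPKM for SIRT2-KOhep mice 1 to 3. Of 49 other secreted defence genes 7 were listed (Lcn2, Ltf, Chil1, Chil4, Camp, S100a8 and S100a9), and all 7 were highest in mouse 2, with a median log2 difference of 0.83 and 0 calls in limma at an adjusted p of 0.05. None of 15 other NADPH oxidase genes and none of 7 other FAM83 genes were listed. Apart from the mucosal barrier genes, none of 19 stomach or 29 intestinal epithelium markers were listed either. Tff2, Spink4, Olfm4 and Muc3, described above as genes of stomach or intestine, are in the table but were left out of this count. The mucosal barrier genes were likewise left out when listed genes were counted for the other lists.

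Markers of other cells were mostly highest in the same mouse, as were 70.1% of the listed genes with a higher mean in SIRT2-KOhep livers. Some were raised in SIRT2-KOhep mouse 1 as well. The neutrophil gene Prtn3 had 2.83, 2.78 and 0.34 FPKM across LoxP and 36.75, 72.58 and 2.48 FPKM across SIRT2-KOhep mice. The bile duct list, with 5 of 28 genes in the table, held 4 genes that were highest in mouse 2 (Krt19, Tspan8, Prom1 and Elf3) and Onecut1, whose mean was lower in SIRT2-KOhep livers. Krt19, the keratin of bile duct cells, had 0.43, 0.93 and 0.3 FPKM across LoxP and 0.78, 6.12 and 0.73 FPKM across SIRT2-KOhep mice. The 5 genes summed to 2.83 to 11.08 FPKM in LoxP mice and to 3.47, 13.37 and 3.12 FPKM in SIRT2-KOhep mice 1, 2 and 3. The sum of mouse 2 was 2.01 times the LoxP mean. This sum pools opposite directions, as Onecut1 had 9.83, 2.67 and 1.66 FPKM across LoxP mice and 0.58 FPKM in mouse 2. By gene, mouse 2 was at 11.1 times the LoxP mean for Krt19, 6.61 for Elf3, 4.77 for Tspan8, 3.57 for Prom1 and 0.123 for Onecut1. Of 39 pancreatic acinar genes other than Reg1, the digestive enzyme gene Ctrb1 was the only one listed, with 0 in every LoxP mouse and 0.13, 0.7 and 0 FPKM across SIRT2-KOhep mice. The 8 listed neutrophil genes of 18 summed to 27.75 to 102.92 FPKM in LoxP mice and to 180.47, 1771.07 and 68.8 FPKM in SIRT2-KOhep mice, most of it Lcn2, which hepatocytes also make. Of 34 acute phase genes 14 were listed, 12 with a higher mean in SIRT2-KOhep livers and 2, Hamp and Hamp2, with a lower one (log2 differences of -2.80 and -1.53). The 14 summed to 2695 to 4077 FPKM in LoxP mice and to 5287, 30296 and 4657 FPKM in SIRT2-KOhep mice, with Saa1, Orm1 and Saa2 the largest values in mouse 2 (6107.51, 5946.42 and 4717 FPKM). The 4 listed haemoglobin genes of 7 summed to 1085 to 1819 FPKM in LoxP mice and to 2679, 6755 and 1601 FPKM. Of 18 plasma and B cell genes 3 were listed, of 11 mesothelial genes 2, of 20 genes of the IL-17 and IL-22 axis 1 (Cxcl1), and of 20 hepatocyte genes 1 (Hamp). Hamp had 224.6, 58.98 and 182.25 FPKM across LoxP and 12.36, 3.03 and 136.44 FPKM across SIRT2-KOhep mice. As it also counts among the acute phase genes, it is no measure of hepatocyte content. None of these listed genes passed an adjusted p of 0.05 in limma. The part of these cells, or of tissue other than liver, in the values of the 10 genes was not tested.

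**Figure D5:**
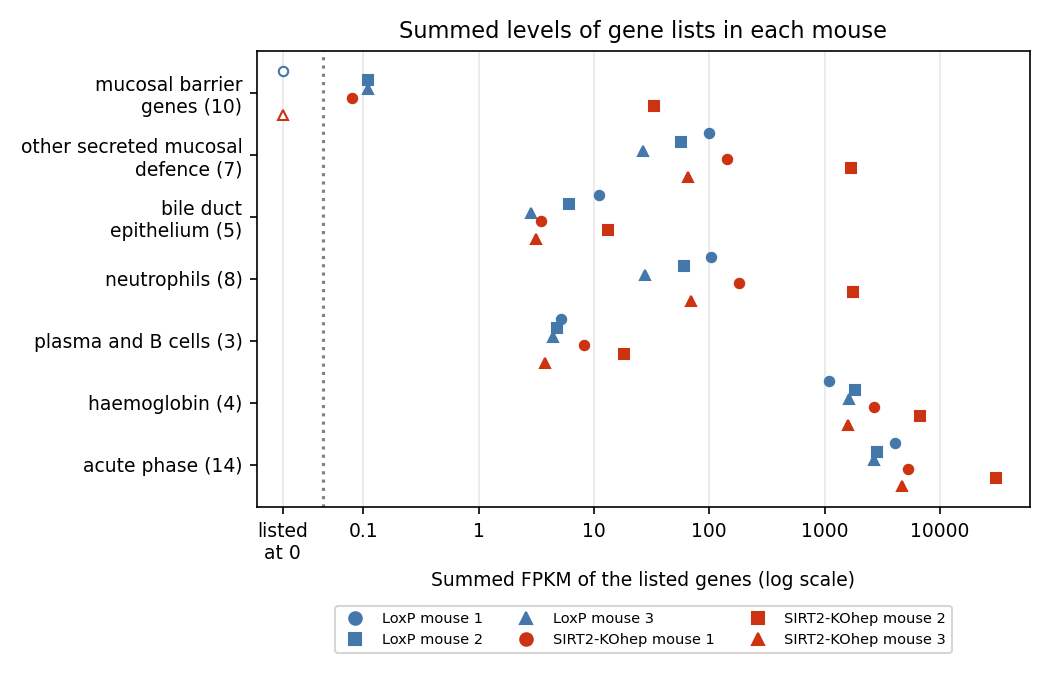
Summed FPKM on a log axis for the 10 mucosal barrier genes and for 6 gene lists, with the number of listed genes in parentheses, 1 symbol per mouse (blue, LoxP; red, SIRT2-KOhep; circle, square and triangle for mice 1, 2 and 3) and open symbols for sums of 0. Mouse 2 of the SIRT2-KOhep group is highest in all 7 rows, with 33.42 FPKM against at most 0.11 FPKM elsewhere for the mucosal barrier genes.

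The positions of the other genes on GRCm38 show that, apart from Duox2 and Duoxa2, the genes are not neighbours. Muc3 lies on chromosome 5 from 137134924 to 137166048, Muc4 on chromosome 16 from 32735886 to 32782391, Tff2 on chromosome 17 from 31141062 to 31144282 and Spink4 on chromosome 4 from 40920056 to 40931395. Reg1 lies on chromosome 6 from 78425983 to 78428668 within a cluster of Reg family genes, of which Reg2, Reg3a, Reg3b, Reg3d and Reg3g are not in the table. Dmbt1, with 47 exons in its principal transcript, lies on chromosome 7 from 131032057 to 131121628, and Fam83e lies far from it on the same chromosome from 45721171 to 45729755. Olfm4 lies on chromosome 14 from 80000302 to 80023141 and overlaps the non-coding gene Gm6999 on the same strand, so its reads can include those of that gene.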

How the data were processed

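Total RNA of the liver was taken through mRNA enrichment or removal of ribosomal RNA, which of them for which library being unspecified, and random-primed libraries were run on the DNBSEQ platform. FPKM values were deposited by the authors in 1 column per mouse for 205 genes, identified by NCBI Gene ID. The submitters' processing notes name the build mm10. Aligner, counting, annotation and the rule that selected the genes are not given in the sources used here. The absence of a gene from the table therefore says nothing of its level, and columns do not sum to a library total.

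The 10 genes, the gene lists and the comparisons were chosen with earlier results of these data known. Gene IDs were matched to RefSeq (GRCm38.p6), which named 203 of 205. FPKM was multiplied by the length of the principal GENCODE M21 transcript to give fragment support. The value of a single read was sought in the low values at 951 assumed depths, and at the best depth 41.7% to 55.6% of 13 to 24 values per mouse lay within 0.1 of a whole number, against 20% under an even spread. Whole reads were thus not recovered and depth is unknown. Values were analysed as log2(FPKM + 1). A limma 3.58.1 model in R 4.3.3 (lmFit, eBayes with trend, Benjamini-Hochberg over all 205 genes) was tested on simulated data and gave the counts over all listed genes. No result from it is given for the 10 genes. The alternatives were pseudocounts of 0.1 and 0.01, rescaling by the median ratio, a minimum mean of 1 FPKM, eBayes without the trend, the replicate number as a block, and leaving out each mouse. Genes named were the 10, Sirt2, listed members of the gene lists and the 6 genes with the most similar share profile. Genes listed at 0 in all LoxP mice and genes called under an alternative were named after their values were seen. Tables and plots were made in Python 3.11.15 with numpy 2.4.6, pandas 2.3.3 and matplotlib 3.10.9. Each library came from a separate mouse.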

Additional observations from a re-analysis of the deposited data

How the results depend on the processing

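The median log2 difference of the 10 genes was 0.29. It was 1.12 and 2.45 with pseudocounts of 0.1 and 0.01, 0.94 for the 3 genes left with a mean of at least 1 FPKM, and 0.15 after rescaling by median ratios, where the median of all 205 genes went from 0.34 to 0.12. The log2 factors divided out were -0.30, -0.32 and -0.57 for the LoxP mice and 0.08, 1.19 and -0.14 for the SIRT2-KOhep mice. A smaller pseudocount enlarges differences from 0 by construction. Across the fits that each left out 1 mouse it ran from 0, without SIRT2-KOhep mouse 2, to 0.43. Without that mouse the sign turned for Tff2 (-0.0917) and Dmbt1 (-0.0024), which reached 1.33 without mouse 1 and 1.99 without mouse 3, respectively, and the size of the other 8 moved by over 1.5 times. The count of genes with all SIRT2-KOhep mice above all LoxP mice was 0 of 10 and reached from 0 to 3 when a mouse was left out, the 3 being without SIRT2-KOhep mouse 3. The share over all 205 genes was not computed with a mouse left out, so nothing is read from that count. All 10 were highest in mouse 2 after rescaling as well. That outcome was fixed beforehand, since each had at least 89.5% of its summed FPKM in mouse 2 and the factors are small beside that. The count of listed genes called by limma was 0. It was 1 (Sirt2) without the trend, and from 0 to 2 when a mouse was left out (H4bc24 and H2bc23 without SIRT2-KOhep mouse 2). H4bc24 and H2bc23 have the same FPKM in every mouse, so they do not count as separate results. Rescaling changed the genes with an unadjusted p below 0.05 from 13 higher and 9 lower to 5 higher and 29 lower, and the cause was not tested. Its factors came from the 152 listed genes above 0 in every mouse, not from whole libraries. Rescaling can thus divide out part of the group difference itself and is no independent check of the scaling. Same-numbered mice did not deviate together (correlations of -0.19, 0.03 and 0.34), and a replicate block gave 0 called genes, 17 with an unadjusted p below 0.05, and a median of the 10 genes of 0.29. Depth is unknown, so counting error behind the low values could not be given.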

Other observations

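The genes named here were chosen with their values already known. Of the 205 listed genes, 12 besides the mucosal barrier genes were listed at 0 in all 3 LoxP livers, and 8 of these were highest in SIRT2-KOhep mouse 2. They were Chil4, the chemokine Ccl21a, the digestive enzyme gene Ctrb1, the GABA receptor subunit gene Gabrp, the glucuronosyltransferase gene Ugt2a2, the adhesion receptor gene Adgrg7, the deubiquitinase gene Usp43 and Oit1. Ugt2a2 was at 0.34 FPKM and Gabrp at 0.25 FPKM in mouse 2 and both were listed at 0 in the other 5 mice. Oit1 and Usp43 were above 0 in all 3 SIRT2-KOhep mice, Oit1 at 0.06, 0.78 and 0.05 FPKM and Usp43 at 0.08, 0.1 and 0.06 FPKM in mice 1, 2 and 3. Adgrg7 had 0.08, 0.41 and 0 FPKM across SIRT2-KOhep mice 1 to 3. Of the other 4 genes, Apol7b (0.52 FPKM) and Hmga1b (0.48 FPKM) were highest in mouse 1, and Cyp3a41b (0.45 FPKM) and Gm14147 (0.16 FPKM) in mouse 3.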
